A study of Mus musculus with 4 samples.

Results

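The replication-dependent histone genes were described as all genes whose symbol in the count tables begins with Hist1h, Hist2h, Hist3h or Hist4, which gave 68 of 24421 genes. They encode the linker histone H1 (6 genes) and the core histones H2A (18), H2B (19), H3 (12) and H4 (13). In GENCODE vM21, which uses the mm10 assembly (GRCm38), 67 of the 68 are protein-coding genes and Hist3h2bb-ps is a pseudogene. The Hist1 genes (54) lie on chromosome 13, the Hist2 genes (10) on chromosome 3, the Hist3 genes (3) on chromosome 11 and the only Hist4 gene, Hist4h4, on chromosome 6.

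The study sequenced RNA of R1, an established line of mouse embryonic stem cells (ESCs), in 2 states with 2 libraries each. Undiff is the state without retinoic acid (RA), given as embryoid bodies in the sample labels and as ESCs kept with leukaemia inhibitory factor in the methods of the study. Day4 is embryoid bodies, aggregates in which ESCs differentiate, after 4 days with RA, a vitamin A metabolite, at 2 µM. According to the methods, Day4 was also grown without leukaemia inhibitory factor, so the effects of RA and of the withdrawal cannot be told apart, and the replicates were grown and treated separately. No gene was altered in either state. The 4 libraries held 32099074 to 47730944 fragments on genes. At this depth 3 counts, taken as the floor of detection, equalled 0.0629 to 0.0935 CPM (counts scaled to a library total of 1e+06).

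Replication-dependent histone mRNAs supply the histones that package newly made DNA, and in most cells they are made in S phase. They have no introns as a rule and end in a conserved stem-loop instead of a poly(A) tail. The stem-loop is bound by SLBP, and the U7 small nuclear ribonucleoprotein guides the cut just after it. When this cut is missed, a poly(A) signal further down can be used, and polyadenylated mRNAs of some of these genes are known from differentiated cells. The kit named in the study's methods (TruSeq RNA v2) selects poly(A) RNA, while a kit that removes ribosomal RNA is also named in the labels. Counts here are therefore counts of the molecules that passed the selection, and the amount of mRNA with a stem-loop end was not measured by itself.

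To show what these genes share, the stem-loops of the members described below are given as DNA, 5′ to 3′, from GENCODE vM21. Capitals mark the stem-loop itself and lower case the 5 bases on either side.
Hist3h2a: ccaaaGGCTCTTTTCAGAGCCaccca
Hist3h2ba: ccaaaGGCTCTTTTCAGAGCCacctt
Hist1h1c: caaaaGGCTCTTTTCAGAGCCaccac
Hist1h4i: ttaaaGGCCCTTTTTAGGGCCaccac
Hist1h2bj: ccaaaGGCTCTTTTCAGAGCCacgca
Hist1h2ae: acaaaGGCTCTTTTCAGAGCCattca
The search asked for GGNNNNTTNNNNNNCC on the transcript strand after the stop codon, with the first 6 and the last 6 bases able to pair. It found the pattern in 44 of the 68 genes, 21 to 58 bases after the stop codon, with a median of 31. The stem-loop of Hist3h2a, Hist3h2ba, Hist1h1c, Hist1h2bj and Hist1h2ae was the form found in 26 genes, and that of Hist1h4i was found in 2. Of the 24 genes without a match, 15 have models with fewer than 37 bases after the stop codon, which is the shortest distance at which a stem-loop ended. Hist2h2be, Hist1h2bc and Hist1h1a were among the other 9, with 2192, 742 and 48 bases after the stop codon. Over the whole length of 58725 protein-coding transcripts of other genes, the same pattern was in 0.276%, and H2afx was the only gene of the list of histone variants that held it.

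Most of the histone genes were barely seen. Of the 68 genes, 10 had no count in any library, which allows up to the floor of each library, and 30 had at most 3 counts in every library. A mean normalised count of at least 5, the minimum that the study set for a differentially expressed gene, was reached by 20 genes. Of these, 12 had means of 5 to 20, 3 had means of 20 to 100, and 5 had means of at least 100. The summed level of all 68 genes was 15.2 and 15.4 CPM in the Undiff libraries and 50.8 and 50.5 CPM in the Day4 libraries. The sum was 3.31-fold higher in Day4 and its groups did not overlap, although an exact permutation test of 2 libraries against 2 cannot pass a threshold of 0.05. In bulk samples, a change in the cells that carry an RNA and a change in the RNA per cell cannot be told apart.

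Near-identical copies can bear on these low counts, since only uniquely aligned fragments were counted. Stretches as long as a sequencing read were compared with the transcripts of all other genes in GENCODE vM21 on either strand. In 5 genes no stretch was unique, in 23 genes up to 50% were, and in 40 genes more than 50% were. The 40 genes held 5019 of the 5241 counts of the 68 genes and 18 of the 20 genes with a mean of at least 5. The 10 genes without a count had a median of 7.61% unique stretches, against 68.7% in the genes with a count. Among these 10 were the copies Hist2h2aa1 and Hist2h2aa2, which encode H2A and had 0% unique stretches, and Hist1h2ba, an H2B gene known from testis, which had 72.9%. A level of 0 in a gene with few unique stretches is thus a doubtful measure of its expression. An overlap with another annotated gene was present in 24 of the 68 genes. Stretches shared with an overlapping gene were also taken as not unique, although a fragment from them can align uniquely. In each of the 5 genes without a unique stretch, an overlapping gene shared at least as many stretches as any other gene. Sharing with copies and with overlapping genes was not told apart.

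Between the states, 5 histone genes were higher in Day4 and 3 were lower, with an adjusted p of at most 0.05, a log2 fold change of at least 1 in size and a mean normalised count of at least 5. Among all 19891 genes tested, 22.2% were higher and 20.6% lower by these thresholds. The 58 histone genes with a count fell short of both shares. However, only 20 of the 58 reached the mean that a call needs, against 16472 of the 19891, so the shortfall follows in part from this minimum. Of the 15 histone genes with a mean of 5 to 100, 1 was higher and 3 were lower, where 29.3% of all genes in this range were higher and 42.9% lower. Of the 5 histone genes with a mean of at least 100, 4 were higher and none was lower. The share of all genes in this class was not computed, so no comparison is drawn from these 5. The median log2 fold change was 0.48 over the 58 genes tested and -0.06 over the 20 genes with a mean of at least 5, against -0.03 and 0.03 over all genes in the same classes.

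**Figure D1:**
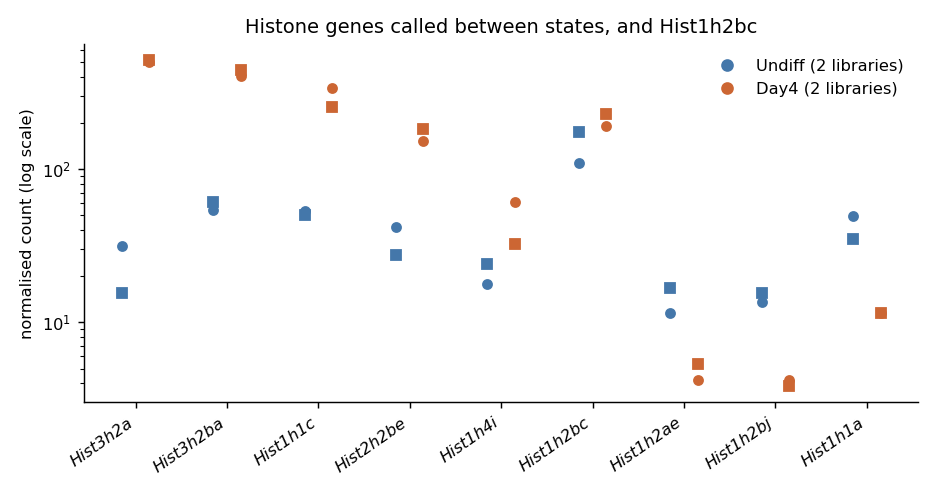
Normalised counts (log scale) of the 8 histone genes called between the states and of Hist1h2bc, in the Undiff (blue) and Day4 (orange) libraries, with circles for replicate 1 and squares for replicate 2. Day4 lies above Undiff for the first 6 genes, with Hist3h2a at 495 and 511 against 31.3 and 15.6, and below it for the last 3.

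The largest rise was in the Hist3 cluster. Hist3h2a, which encodes an H2A protein (chr11:58954685-58956830, plus strand), had 31.3 and 15.6 normalised counts in Undiff against 495 and 511 in Day4. The Day4 libraries were close to each other and far above both Undiff libraries. The log2 fold change was 4.39 ± 0.18 (SE, edgeR adjusted p = 4.4e-11), and 5.01 without Undiff replicate 1. From the pooled fragments alone, 43 in Undiff and 1139 in Day4, the ratio of CPM was 22.03 with a 95% counting interval of 16.2 to 30.6. All 508 bases of the RefSeq model of Hist3h2a also lie in an exon that GENCODE gives to Trim17 on the same strand. Trim17 itself had 12 and 10 counts in Undiff and 27 and 50 in Day4, and fragments that fit both genes are left out of either count. The part of this overlap in the counts of Hist3h2a was not tested.

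Its neighbour Hist3h2ba, an H2B gene (chr11:58948920-58949533, plus strand), had 54.2 and 61.0 normalised counts in Undiff and 403 and 444 in Day4. The groups did not overlap, and the log2 fold change was 2.89 ± 0.14 (SE, edgeR adjusted p = 2.5e-10). The pseudogene of the cluster, Hist3h2bb-ps, was at the floor in every library. The Hist3 genes together rose from 2.24 and 1.99 CPM to 24.6 and 26.1 CPM, a sum that their 2 called members carry, and went from 13.8% of the summed level of all histone genes in Undiff to the largest share of the 4 clusters in Day4. The share of the Hist1 genes went from 76.8% to 40.2% and that of the Hist2 genes from 8.98% to 9.71%.

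Per kilobase of the RefSeq model, Hist3h2a had a mean of 46.1 normalised counts in Undiff and 990 in Day4, and Hist3h2ba had 125 and 917. On this scale Hist3h2ba was the higher of the 2 genes in Undiff and the 2 were close in Day4. On the longer GENCODE models, of 2146 bases for Hist3h2a and 614 for Hist3h2ba, the Day4 levels were 234 and 690 per kilobase, so their order in Day4 rests on which model the fragments were counted on.

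Among the linker histones, which bind the DNA between nucleosomes, 2 genes moved in opposite directions. Hist1h1c, which encodes H1.2 (chr13:23738808-23740367, plus strand), had 53.1 and 50.3 normalised counts in Undiff and 338 and 253 in Day4. Its Day4 replicates were further apart than its Undiff replicates and both lay above them, with a log2 fold change of 2.49 ± 0.19 (SE, edgeR adjusted p = 4.7e-08). Hist1h1a, which encodes H1.1 (chr13:23763666-23764406, plus strand), had 49.0 and 34.7 normalised counts in Undiff and 11.5 and 11.5 in Day4. It was lower in Day4 by both libraries, with a log2 fold change of -1.87 ± 0.34 (SE, edgeR adjusted p = 2.2e-04). Of the other linker histone genes, Hist1h1b had a log2 fold change of -0.96 and Hist1h1d of -0.66, and neither passed the test, with edgeR adjusted p of 0.079 and 0.32. In Undiff replicate 1 Hist1h1d had 20 counts and in replicate 2 it had 4, a spread wider than its difference between the states. The H1 genes summed to 3.76 and 2.80 CPM in Undiff and to 10.2 and 7.75 CPM in Day4.

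The H2B genes held the largest part of the summed level in Undiff, 57.7%, and 47.7% in Day4. Hist2h2be (chr3:96221119-96223738, plus strand) had 41.7 and 27.5 normalised counts in Undiff and 153 and 183 in Day4. All Day4 values lay above the Undiff values, with a log2 fold change of 2.27 ± 0.21 (SE, edgeR adjusted p = 3.0e-07). Hist1h2bc (chr13:23684199-23692908, plus strand), whose model is spliced, was the H2B gene with the most counts in Undiff. It had 109 and 173 normalised counts in Undiff and 189 and 229 in Day4. The groups did not overlap, but the log2 fold change of 0.60 ± 0.18 (SE, edgeR adjusted p = 0.0083) was under the minimum size for a call. Per kilobase of its GENCODE exons it had 122 normalised counts in Undiff and 181 in Day4.

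Hist1h2bj (chr13:22043214-22043676, plus strand) went the other way, with 13.5 and 15.6 normalised counts in Undiff and 4.18 and 3.84 in Day4. Its log2 fold change was -1.83 ± 0.53 (SE, edgeR adjusted p = 0.0064), on 26 fragments in Undiff and 9 in Day4. Of the H2A genes outside the Hist3 cluster, Hist1h2ae (chr13:23570517-23571220, minus strand) had 11.5 and 16.8 normalised counts in Undiff and 4.18 and 5.37 in Day4, and a log2 fold change of -1.49 ± 0.52 (SE, edgeR adjusted p = 0.020). Both are low genes whose groups did not overlap. Both calls were lost with either DESeq2 setting and in a test against a fold change of 2, and that of Hist1h2ae also without Undiff replicate 2 or Day4 replicate 1.

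Of the H4 genes, Hist1h4i (chr13:22040636-22041362, minus strand) had 17.7 and 23.9 normalised counts in Undiff and 60.6 and 32.2 in Day4. Both Day4 libraries were above both Undiff libraries, but the Day4 replicates differed by more than the nearest values of the groups. The log2 fold change was 1.101 ± 0.37 (SE, edgeR adjusted p = 0.016). The call was lost with either DESeq2 setting, in a test against a fold change of 2, without Undiff replicate 1, where the log2 fold change was 0.89, and without Day4 replicate 1, where it was 0.64. The H4 genes summed to 0.927 and 1.03 CPM in Undiff and 2.46 and 1.61 CPM in Day4. Of the H3 genes, none was called, and their sum of 0.954 and 0.935 CPM in Undiff and 1.14 and 0.985 CPM in Day4 differed between the states by 1.13-fold.

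The other 12 genes with a mean of at least 5 were not called, with log2 fold changes from -1.01 to 0.81 and standard errors of 0.18 to 0.82. Of these, 5 had log2 fold changes above 0 and 7 below. Hist2h2bb was close to the thresholds and was called lower in 3 of the alternatives, with a filter on low counts (filterByExpr), without Undiff replicate 2 and without Day4 replicate 2. It had 21 and 11 counts in Undiff and 5 and 15 in Day4, with a lower mean in Day4 (SE of the log2 fold change 0.48, edgeR adjusted p = 0.075). Its model has no stretch of the length of a read that is unique among transcripts. The overlapping gene Gm20628, on the other strand, shared at least as many of its stretches as any other gene.

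**Figure D2:**
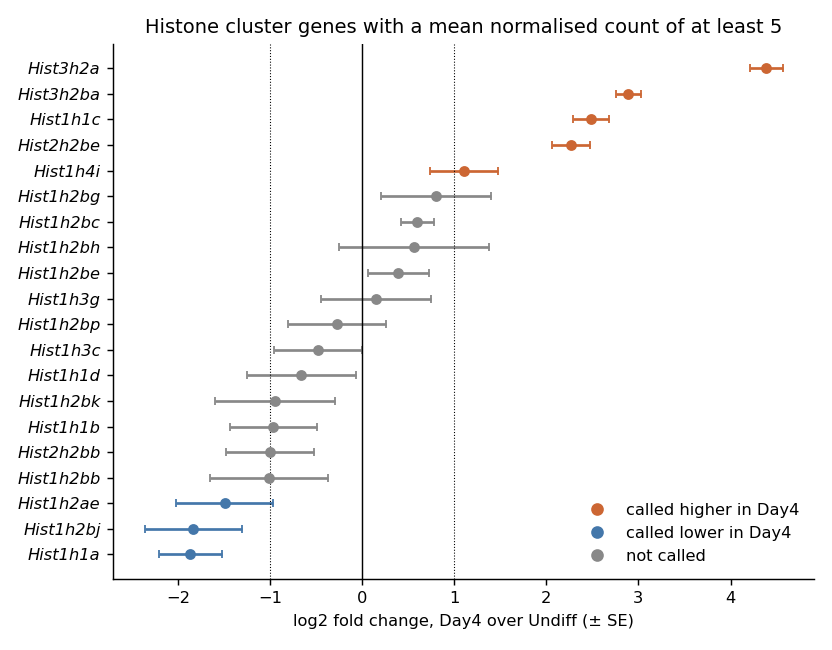
Log2 fold changes of Day4 over Undiff, with standard errors as bars, for the 20 histone genes with a mean normalised count of at least 5. Orange points were called higher in Day4, blue points lower and grey points not called, and dotted lines mark the minimum size of 1. Hist3h2a, Hist3h2ba, Hist1h1c and Hist2h2be lie between 2.27 and 4.39, apart from the other 16.

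The rise of the sum thus lay in few genes. The 5 genes called higher made up 32.1% of the summed CPM in Undiff and 77.5% in Day4, which repeats in part that they were chosen for being higher. Without Hist3h2a the sum was 2.51-fold higher in Day4. The 60 genes not called summed to 8.07 and 9.03 CPM in Undiff and 10.6 and 11.1 CPM in Day4, a ratio of 1.27.

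The annotated ends of the transcripts were then compared, a grouping made after the values had been seen. A poly(A) signal, which is AATAAA or, as its most common variant, ATTAAA on the transcript strand, stood in the last 50 bases of an annotated transcript of 17 of the 68 genes, or 25%. In protein-coding transcripts of other genes the share was 50.2%. All 5 genes called higher were among the 17, as was Hist1h2ae, which was lower. Of the other 11, 3 had no count and 8 had counts without a call. Hist1h4k, which has no signal at its annotated end, had 1 and 1 counts in Undiff and 8 and 11 in Day4. Its log2 fold change was 2.79 ± 0.77 (SE, edgeR adjusted p = 0.0047). It was not called because its mean of 4.76 was under the minimum. In 4 of the genes called higher, the annotated transcript ran 169 to 1643 bases past the stem-loop, with 169 in Hist3h2ba, 330 in Hist1h4i, 840 in Hist1h1c and 1643 in Hist3h2a. Over 100 bases after the stem-loop were found in 22 of the 44 genes with one, so this was not particular to the genes called higher. Among the 22 were Hist1h1d, not called, with 4884 bases, and Hist1h2ae, called lower, with 151. In the model of Hist2h2be, 2620 bases long, no stem-loop was matched. The RefSeq models of those 4 genes are shorter, with 462, 403, 725 and 508 bases in the same order, and that of Hist2h2be has 2667. The study counted genes on a UCSC mm10 annotation, whose models may lack the longer GENCODE ends.

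The 17 genes with a signal at the annotated end summed to 6.46 and 6.20 CPM in Undiff and to 41.2 and 40.1 CPM in Day4, which was 6.42-fold higher, and 4.71-fold higher without Hist3h2a. The 51 genes without one summed to 8.73 and 9.22 CPM in Undiff and 9.61 and 10.4 CPM in Day4, a ratio of 1.12. In the model of Hist1h2bc a signal begins 447 bases before the end and so was not counted. Without Hist1h2bc the remaining 50 genes had 5.86 and 4.70 CPM in Undiff and 4.43 and 4.17 CPM in Day4, a ratio of 0.814. These 50 genes were not searched for such earlier signals, so nothing is drawn from this ratio. The median log2 fold change was 1.097 over the 14 genes tested with a signal and 0.39 over the 44 without. Neither the sums nor the medians were tested, since the genes called higher decide the first group's sum. A signal in an annotation does not show that the fragments counted came from polyadenylated molecules, and the ends of the molecules were not analysed here.

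**Figure D3:**
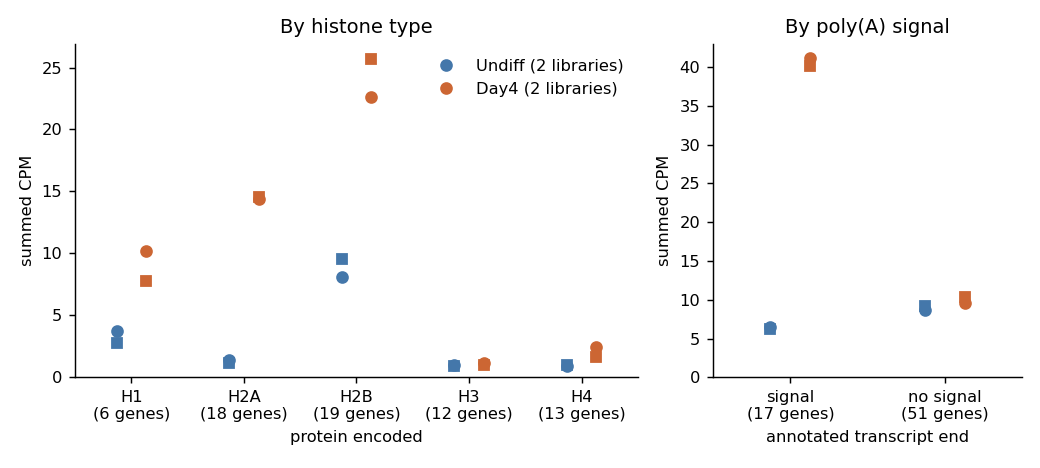
Summed CPM of the histone genes by the protein they encode (left) and by the presence of a poly(A) signal in the last 50 bases of an annotated transcript (right), in the Undiff (blue) and Day4 (orange) libraries, with circles for replicate 1 and squares for replicate 2. The genes with a signal lie at 6.46 and 6.20 CPM in Undiff and 41.2 and 40.1 CPM in Day4, and the genes without one between 8.73 and 10.4 CPM.

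Genes whose RNAs are made without a poly(A) tail were also read. Their counts do not measure how much RNA without a tail the libraries held. Of 10 such genes listed, 7 were in the tables and 5 had a count. Rpph1, the RNA of ribonuclease P, had 18 and 13 counts in Undiff and 17 and 8 in Day4. Rmrp, the RNA of ribonuclease MRP, had 10 and 5 counts in Undiff and 6 and 6 in Day4. Terc, the telomerase RNA, had 3 and 1 counts in Undiff and 1 and 1 in Day4. Rnu12, a spliceosomal RNA, had 0 and 2 counts in Undiff and 1 and 0 in Day4, and Vaultrc5, a vault RNA, had 0 and 0 in Undiff and 2 and 0 in Day4. These genes summed to 0.845 and 0.654 CPM in Undiff and 0.772 and 0.314 CPM in Day4, and none was called between the states. The groups overlapped in this sum, which rests on few counts, and the part of RNA without a tail in the levels of the histone genes was not tested.

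The bases before the transcription start are shown for the 2 genes of the Hist3 cluster that rose together and for the 2 linker histone genes that moved apart. They are the 250 bases before the start, 5′ to 3′, from RefSeq on GRCm38.p6, with capitals for the 3 motifs named after them, on either strand.
Hist3h2a, chr11:58954435-58954684 (plus strand): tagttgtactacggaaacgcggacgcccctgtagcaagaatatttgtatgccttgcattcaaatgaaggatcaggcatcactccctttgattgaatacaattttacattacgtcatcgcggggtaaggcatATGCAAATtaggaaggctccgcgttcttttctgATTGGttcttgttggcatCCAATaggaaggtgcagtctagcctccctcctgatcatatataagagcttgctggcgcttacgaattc
Hist3h2ba, chr11:58948661-58948910 (plus strand): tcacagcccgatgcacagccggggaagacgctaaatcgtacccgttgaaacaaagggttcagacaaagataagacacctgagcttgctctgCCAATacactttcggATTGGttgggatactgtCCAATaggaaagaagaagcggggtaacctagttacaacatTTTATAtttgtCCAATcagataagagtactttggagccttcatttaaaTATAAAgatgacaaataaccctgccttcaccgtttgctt
Hist1h1c, chr13:23738557-23738806 (plus strand): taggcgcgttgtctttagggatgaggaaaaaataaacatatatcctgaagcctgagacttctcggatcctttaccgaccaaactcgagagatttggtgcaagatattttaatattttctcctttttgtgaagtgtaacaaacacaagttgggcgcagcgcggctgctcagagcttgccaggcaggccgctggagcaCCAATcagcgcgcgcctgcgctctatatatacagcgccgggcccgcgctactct
Hist1h1a, chr13:23763418-23763667 (plus strand): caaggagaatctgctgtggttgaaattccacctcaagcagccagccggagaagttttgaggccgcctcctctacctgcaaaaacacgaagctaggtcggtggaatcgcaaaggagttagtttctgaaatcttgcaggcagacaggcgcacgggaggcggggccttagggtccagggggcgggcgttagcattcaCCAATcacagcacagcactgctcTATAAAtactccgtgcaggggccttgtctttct
CCAAT is the core of the site of NF-Y. A common form of the TATA box is TATAAA. The octamer is ATGCAAAT, a site bound by POU factors such as Oct1 (Pou2f1). The motifs were searched on both strands from 250 bases before to 50 bases after the start, in the 62 histone genes with an entry, and none of them contains another. CCAAT was in 85.5% of these genes and in 37.4% of all 32851 promoters. It was in all H1, H2A, H2B and H3 genes with an entry but in 3 of the 12 H4 genes. TATAAA was in 56.5% of the histone genes and 13.6% of all promoters. ATGCAAAT was in 22.6% against 1.74%, and of the 14 histone genes with it 7 encode H2A and 7 encode H2B. Of the called genes, Hist3h2a, which rose, and Hist1h2ae, which fell, both held the octamer, and Hist1h4i held the TATA box motif without the NF-Y motif. Hist2h2be and Hist1h2bc had no entry.

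Most of the genes that make histone mRNA did not pass the minimum size. In this and the following lists, counts of called genes stand beside 22.2% higher and 20.6% lower among all genes tested. Of 8 genes for histone gene transcription, 1 was lower and none was higher, with a median log2 fold change of -0.45. Npat, the coactivator that binds at histone genes, had normalised counts of 3216 and 3155 in Undiff and 2919 and 2912 in Day4. Its log2 fold change was -0.13 ± 0.05. Casp8ap2 (FLASH), a partner of NPAT in histone gene expression and 3′ end processing, had 4433 and 4658 in Undiff and 3389 and 3367 in Day4, a log2 fold change of -0.43 ± 0.05. Hinfp, which binds H4 promoters, had 722 and 713 in Undiff and 492 and 542 in Day4, a log2 fold change of -0.47 ± 0.08. The gene that was lower, Ccne1, encodes cyclin E1, which with CDK2 phosphorylates NPAT, and was named after its value was seen. It had 15884 and 17048 normalised counts in Undiff and 2370 and 2217 in Day4, and a log2 fold change of -2.85 ± 0.05 (SE, edgeR adjusted p = 2.3e-14).

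Of 11 genes for histone mRNA 3′ end processing, 2 were lower, a share near that of all genes, and none was higher, with a median log2 fold change of -0.38. Slbp, the stem-loop binding protein, had 4889 and 5086 normalised counts in Undiff and 3792 and 3737 in Day4, and a log2 fold change of -0.41 ± 0.05. Lsm10 and Lsm11 are the subunits particular to the U7 particle. Lsm10 had 413 and 440 normalised counts in Undiff and 642 and 629 in Day4, a log2 fold change of 0.58 ± 0.08. Lsm11 had 940.0 and 987 in Undiff and 1571 and 1543 in Day4, a log2 fold change of 0.69 ± 0.06, so both were under the minimum size. Zfp473, a zinc finger protein that binds the SLBP complex, fell from 1849 and 1731 normalised counts in Undiff to 415 and 405 in Day4, and a log2 fold change of -2.13 ± 0.07 (SE, edgeR adjusted p = 4.2e-12). The other gene that was lower was Srrt (ARS2), a partner of the cap-binding complex, with -1.06 ± 0.04, named after its value was seen. Its call was lost when the counts were scaled by library totals.

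Of 7 genes for the translation and decay of histone mRNA, 1 was higher and 1 was lower. Mif4gd (SLIP1), which links SLBP to translation, had 2416 and 2547 normalised counts in Undiff and 981 and 957 in Day4, and a log2 fold change of -1.36 ± 0.06 (SE, edgeR adjusted p = 6.2e-11). Eri1, the exonuclease that trims the stem-loop, had 4464 and 4742 normalised counts in Undiff, 3319 and 3318 in Day4 and a log2 fold change of -0.47 ± 0.05. Zcchc11, a uridylyltransferase that adds uridines to RNA ends, was higher, with 1.51 ± 0.05 (SE, edgeR adjusted p = 8.2e-12), and was named after its value was seen.

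Among the genes that place histones on new DNA and that copy the DNA, none was called higher. Of 11 genes for chromatin assembly at replication, 5 were lower and none was higher, with a median log2 fold change of -0.93, and with library totals 3 were lower. Nasp, a chaperone of H1 and of H3 with H4, had 39726 and 43860 normalised counts in Undiff and 17518 and 18508 in Day4, and a log2 fold change of -1.21 ± 0.05 (SE, edgeR adjusted p = 4.2e-11). The others that were lower were Hat1, the acetyltransferase of new H4, with -2.05 ± 0.04, Mms22l, with -1.29 ± 0.06, Asf1b, with -1.03 ± 0.05, and Tonsl, which was just past the minimum size. Of 21 genes for DNA replication, 5 were lower, a share near that of all genes, and none was higher, with a median of -0.76. The 5 were Rrm2, Mcm5, Mcm3, Cdc6 and Pola1, with log2 fold changes of -1.22 to -1.03. With library totals 4 genes for DNA replication were lower. The called genes of both lists other than Nasp were named after their values were seen.

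Histone variants, listed as those made independently of replication, and for the most part from polyadenylated mRNAs, gave another pattern. Of 12 listed, 7 were higher in Day4, or 6 with DESeq2 size factors, and none was lower, with a median log2 fold change of 1.04. H2afy2 (macroH2A2) had 521 and 432 normalised counts in Undiff and 7143 and 7334 in Day4, and a log2 fold change of 3.92 ± 0.07 (SE, edgeR adjusted p = 1.9e-14). H1f0 (H1.0), a linker histone of differentiated cells, had 2186 and 2010 in Undiff and 11108 and 11160 in Day4, and a log2 fold change of 2.41 ± 0.05 (SE, edgeR adjusted p = 7.0e-14). H1fx (H1X) rose from 264 and 269 normalised counts in Undiff to 1309 and 1120 in Day4, a log2 fold change of 2.18 ± 0.10. H2afy (macroH2A1) rose from 4082 and 3618 to 9236 and 9687, a log2 fold change of 1.30 ± 0.06. In each of these genes both Day4 libraries lay above both Undiff libraries. H3f3a and H3f3b both encode H3.3. H3f3a rose from 12364 and 12419 to 25689 and 25700, a log2 fold change of 1.05 ± 0.04. H3f3b rose from 25228 and 26347 to 55290 and 52663, a log2 fold change of 1.07 ± 0.04. H2afv, which encodes H2A.Z.2, rose from 4487 and 4319 to 8816 and 9117, a log2 fold change of 1.03 ± 0.04. The last 3 genes were just past the minimum size. Of the 5 variants not called, 3 were lower in Day4 by less than the minimum size. They were Cenpa, with a log2 fold change of -0.76 ± 0.05, H2afj, with -0.70 ± 0.10, and H2afz, with -0.27 ± 0.05. H1foo, also not called, had at most 1 count in a library. H2afx, whose transcript holds the stem-loop pattern, had 3620 and 3708 normalised counts in Undiff and 3709 and 3677 in Day4, and a log2 fold change of 0.01 ± 0.05.

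**Figure D4:**
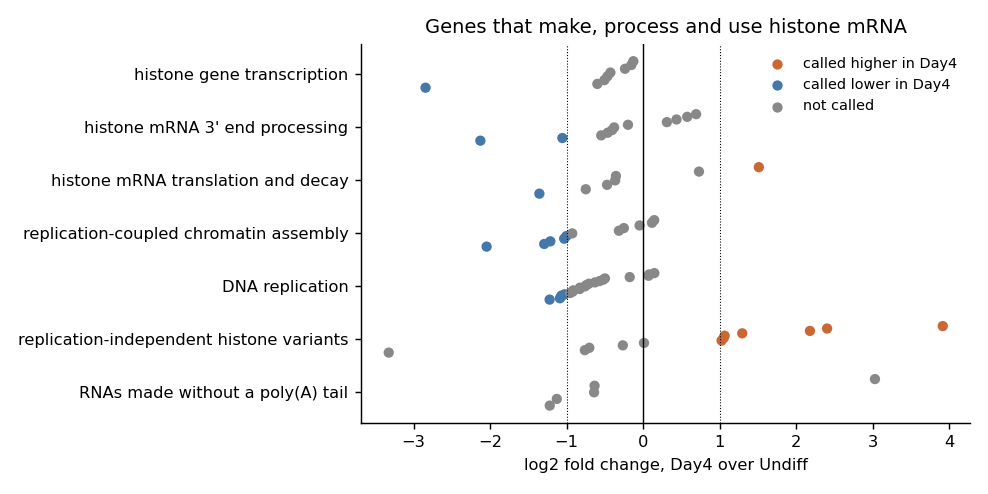
Log2 fold changes of Day4 over Undiff for the tested genes of 7 lists. Each point is a gene, orange where called higher, blue where called lower and grey where not called, with dotted lines at the minimum size of 1. The histone variants hold 7 of the 8 orange points, and no gene of the lists for DNA replication and chromatin assembly is orange.

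Lists of cell type markers were read between the states as well. The pluripotent list (Pou5f1, Nanog, Sox2 and others) was lower in Day4 in 8 of 8 genes. Of 7 fibroblast markers, which can mark feeder cells and also differentiating mesenchyme, 6 were higher and Thy1 was lower, and their summed level was 63.1 and 58.4 CPM in Undiff and 1712 and 1554 CPM in Day4. Visceral endoderm markers were higher in 5 of 6 genes, with sums of 6.60 and 6.76 CPM in Undiff and 273 and 278 CPM in Day4. Of 6 neural markers, 2 were higher and 3 lower, with sums of 119 and 118 CPM in Undiff and 112 and 124 CPM in Day4. Afp was at 0 in both Undiff libraries and Neurog2 in Undiff replicate 2, and no other listed marker was at 0 in a library. Fragments in no gene made up 12.1% and 13.2% of each Undiff library and 7.50% and 7.74% of each Day4 library. The part of the cell types, and of these fragments, in the levels of the histone genes was not tested.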

How the data were processed

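The authors used cutadapt for trimming, STAR 2.4.2a for alignment to mm10 and htseq-count for counting uniquely aligned fragments per gene. The deposited values are raw counts per gene symbol, and the strand option for these counts is not given in the sources used here. Here the quasi-likelihood test of edgeR 4.0.16 (R 4.3.3) was run with TMM scaling over all 19891 genes with a count, with Benjamini-Hochberg adjustment. A call needed an adjusted p of at most 0.05, a log2 fold change of at least 1 in size and a mean normalised count of at least 5, as in the study. Normalised counts were brought to a common effective library size, the geometric mean over libraries, and CPM uses library totals. Counting intervals and floors cover counting error only.

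Members and lists were chosen with earlier results of these data known. Values in every library were given for members called, the 5 with the highest mean CPM and those with a mean of at least 100, for 10 fixed genes of histone mRNA metabolism, for detected RNAs without a tail and for called histone variants. Positions and models came from GENCODE vM21 by symbol (68 of 68 matched) and promoters from RefSeq (62 of 68), and the annotation used by the authors may differ. Replicates differed beyond counting noise, with chi-square per degree of freedom of 5.43 in Undiff and 2.97 in Day4. The test was checked on simulated counts. The labels give RA at another unit of concentration than the study's design and methods, whose 2 µM is used. The ONT libraries were not analysed here.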

Additional observations from a re-analysis of the deposited data

How the results depend on the processing

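The calls of Hist3h2a, Hist3h2ba, Hist1h1c, Hist2h2be and Hist1h1a were kept under all 14 alternatives run. Among these, dropping the minimum fold change or the minimum mean count can add calls but cannot lose one. The calls of Hist1h4i, Hist1h2ae and Hist1h2bj were each lost under some alternatives. DESeq2 1.42.0 gave 1 gene lower in Day4, without shrinkage and with betaPrior, as did a test against a fold change of 2. Without the minimum mean count 6 were higher, with Hist1h4k added, and 5 were lower. Leaving out each library in turn gave 4 to 7 genes higher, 2 to 4 lower and a summed level 3.29 to 3.34 times higher. Without Undiff replicate 2, Hist1h1d, Hist1h3d, Hist1h4k and Hist2h2bb were called in addition, Hist2h2bb also with filterByExpr and without Day4 replicate 2. The summed level was 3.16-fold higher with TMM effective library sizes and 2.51-fold higher without Hist3h2a. With library totals, 1 gene for 3′ end processing, 3 for chromatin assembly and 4 for DNA replication were lower, and with DESeq2 size factors 6 histone variants were higher. The legacy dispersion of edgeR, added after seeing the data, and the fit with a replicate block each gave 5 genes higher and 3 lower. The numbers do not pair the libraries (r = -0.00497 over 13318 genes), and the block changed no call of a histone gene. The cause of these differences was not tested. In the main fit, the 48 histone genes with a mean under 5 could not be called. The mean was taken anew where a library was left out, so some of them could be called there.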
